A study of Mus musculus with 2 samples.

Results

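The endothelial cells of mouse livers bearing cholangiocarcinoma were examined in 2 single-cell RNA-Seq libraries, one from a mouse arm given PBS and one from an arm given anti-PD-1 antibody. Cells were chosen by a marker gate. Among kept cells, those that passed the quality filter (500 to 5000 detected genes and at most 10% of UMIs from mitochondrial genes), a cell entered the gate if it held a UMI, a uniquely tagged transcript, of at least 3 of Cdh5, Kdr, Ptprb, Pecam1, Egfl7, Stab2 and Clec4g. A cell was left out if it held any UMI of Epcam (epithelium), Cd3e (T cells), Cd79a (B cells), Clec4f (Kupffer cells) or Col1a1 (fibroblasts). The gate found 402 cells in the PBS library and 50 in that of the anti-PD-1 arm, 452 of 31891 kept cells in all. Because gene levels chose these cells, the levels of the marker genes in them are a description and not a finding.

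Both libraries carried the genotype shYT, doxycycline-inducible shRNAs against Yap1 and Wwtr1 (TAZ). The study describes their CAG-rtTA3 driver as ubiquitous, so the design includes the endothelium. Tumors had been started by hydrodynamic tail vein injection of the oncogenes NICD (the intracellular domain of Notch) and myr-AKT (myristoylated AKT), a method that delivers DNA mainly to hepatocytes. The shRNAs were induced from day 25, the antibody (clone RMP1-14) was injected on days 26, 29 and 32, and the livers were analyzed on day 33; the other arm received PBS. The labels give neither the number of animals, their sex, the shRNA line nor a batch for either library. The study describes several animals per treatment group in this experiment, but with 1 library per arm and no hashtag labeling the cells cannot be assigned to animals. A library without the YAP/TAZ shRNAs was not analysed here, so the knockdown itself cannot be read from these values. In the gated cells Yap1 had 38 UMIs (20.1 CPM, the gene's UMIs scaled to a total of 1000000) in the PBS library and 1 UMI (5.27 CPM) in the anti-PD-1 library, and Wwtr1 had 217 UMIs (114.5 CPM) and 10 UMIs (52.7 CPM).

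Endothelial cells line all blood and lymph vessels. In the liver most of them are sinusoidal: thin, fenestrated cells without a continuous basement membrane that clear particles from portal blood through scavenger receptors such as Stab1, Stab2 and Mrc1, and that feed growth and zonation signals to neighbouring hepatocytes. Arteries and the portal and central veins are lined by endothelium of the continuous type. Endothelial cells also decide where leukocytes leave the blood, through adhesion molecules and chemokines, and they can present antigen. Interferon-γ, made mainly by T and NK cells, switches on in them GTPases of the guanylate-binding and IRG families, antigen-processing genes and the chemokines Cxcl9 and Cxcl10.

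With 1 library per group, no test of treatment was possible and no p-value is given. Treatment, animal, sex, batch and library cannot be told apart. Every interval is a 95% counting interval. For shares it covers sampling of cells only. For CPM and ratios it covers sampling of UMIs only, not of cells, so it is too narrow where few cells hold most of a gene's UMIs. Fewer cells of a type and a lower yield from dissociation likewise cannot be told apart. The gated cells held 1895181 UMIs (median 3833 per cell) under PBS and 189721 (median 2603 per cell) under anti-PD-1, so the anti-PD-1 values rest on far fewer transcripts. In gated cells Xist, the RNA that coats the silenced X chromosome in females, had 416 UMIs (219.5 CPM) with PBS and 0 with anti-PD-1. The floor of 3 counts, used in ratios for a count of 0, is 15.8 CPM in the gated anti-PD-1 cells. The difference ran through the whole libraries: in the remaining cells Xist had 18036 UMIs (233.6 CPM) with PBS and 11 UMIs (0.142 CPM) with anti-PD-1, and Y-linked genes had 39.6 and 197.4 CPM. In gated cells Y-linked genes had 30.6 and 153 CPM, and 24 and 17 gated cells had a Y-linked UMI and no Xist UMI. The libraries shared 219 barcodes, and no shared barcode was gated in both.

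The levels of the gate's own markers, which the rule fixed in part, are given as a description. Among gated cells of the PBS and anti-PD-1 libraries, Cdh5 (VE-cadherin, the junction protein of endothelium; chr8:104101625-104144511 in GRCm38) had a UMI in 85.8% and 84.0%, and Ptprb (the phosphatase VE-PTP) in 92.5% and 90.0%. Kdr, the main VEGF receptor, had a UMI in 80.1% and 64.0%. Pecam1 was found in 86.8% and 80.0% of the cells and Egfl7, a secreted vascular protein, in 88.6% and 76.0%. The sinusoidal markers Stab2 (a hyaluronan scavenger receptor; chr10:86841198-87008025) and Clec4g (a C-type lectin; chr8:3707064-3720651) were found in 48.0% and 42.0%, and in 55.5% and 56.0%. In all other kept cells the 7 markers had a UMI in 0.944% to 13.4% of cells, with Pecam1 (10.6% and 13.4%), Cdh5 (8.04% and 10.8%) and Stab2 (5.46% and 6.36%) at the top of that range. In CPM, 6 of the 7 markers were lower in the anti-PD-1 library by 0.09 to 0.89 on the log2 scale, and Stab2 stood at 546.6 and 553.4 CPM.

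**Figure D1:**
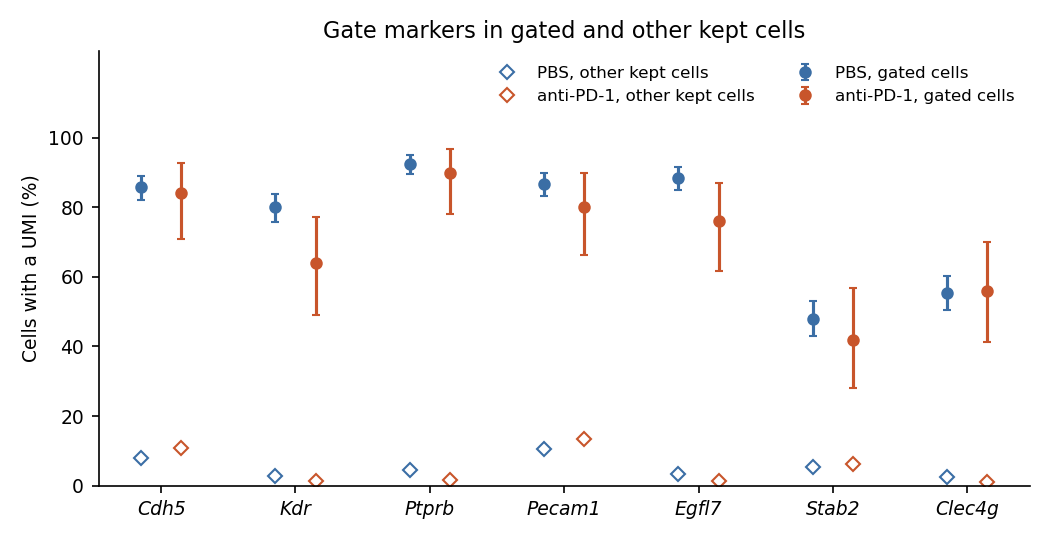
Share of cells (percent, vertical axis) with a UMI of each of the 7 gate markers, for gated cells (filled points, with exact 95% counting intervals) and all other kept cells (open diamonds) of each library. In the PBS library the gated cells range from 48.0% (Stab2) to 92.5% (Ptprb), and no marker exceeds 13.4% in the other cells of either library.

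Eng and Tie1, endothelial genes that the gate did not use, were higher in gated than in all other cells. Eng (endoglin, a TGF-β co-receptor) stood at 2375 and 1929 CPM in gated cells of the PBS and anti-PD-1 libraries, against 59.96 and 25.2 CPM in all other cells. Tie1, an orphan receptor of vessels, stood at 321.3 and 295.2 CPM against 6.24 and 1.85 CPM. Ptprc (CD45), the pan-leukocyte gene, had a UMI in 21.4% and 24.0% of gated cells, against 74.9% and 83.9% of all kept cells. Cells just inside the gate, with exactly 3 markers, numbered 53 and 11 and had Tie1 at 102.9 and 58.3 CPM (16 and 2 UMIs). Cells just outside, with 2 markers, numbered 151 and 51 and had Tie1 at 17.2 and 4.83 CPM (13 and 1 UMIs). The cells with 3 markers also held more Igkc, an immunoglobulin light chain, than those with 5 to 7 markers: 694 and 3995 CPM, against 248 to 376 CPM with PBS and 436 to 1167 CPM with anti-PD-1.

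The first comparison asked how much of each cell suspension was endothelial. Gated cells were 2.59% (402 of 15531; 2.34% to 2.85%) of kept cells in the PBS library and 0.306% (50 of 16360; 0.227% to 0.403%) in the anti-PD-1 library. The difference was -2.28 percentage points (-2.55 to -2.03), with the PBS share 8.47 times higher. The gap held for both kinds of endothelium: sinusoidal cells were 1.67% and 0.208% of kept cells, and the other endothelial cells 0.921% and 0.0978%. Barcodes outside the quality filter, which the gate did not use, also held fewer in the anti-PD-1 library (112 of 3866, 2.90%, and 21 of 3091, 0.679%).

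The size of this gap depended on the step that removes cells with transcripts of other types. Before that step 860 and 543 cells passed the marker count, 5.54% and 3.32% of kept cells, and the PBS share was 1.67 times higher. Ptprc had a UMI in 46.4% and 84.7% of these cells, against 21.4% and 24.0% of gated cells. The 1.67 is therefore not a ratio of endothelial cells alone. The step removed 53.3% of the cells past the marker count with PBS and 90.8% with anti-PD-1. Most were removed for Clec4f, which had a UMI in 38.6% and 84.2% of the cells past the marker count. Clec4f transcripts were also spread beyond Kupffer cells, which alone make this lectin in the liver: cells with UMIs of all 4 neutrophil genes S100a8, S100a9, Retnlg and Csf3r (786 and 2418 cells) had a Clec4f UMI in 12.8% and 34.3%. The cells removed with a Clec4f UMI often held Cdh5 (95.8% and 97.2%), Pecam1 (92.8% and 93.2%) and Stab2 (82.8% and 91.0%), and less often Kdr (25.6% and 10.9%), Ptprb (32.5% and 15.3%) and Egfl7 (30.4% and 12.9%). Where cells were removed only at 3 or more UMIs of an exclusion gene, 579 and 115 cells stayed and the PBS share was 5.30 times higher. With every cell first thinned to 1000 UMIs it was 6.34 times higher.

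**Figure D2:**
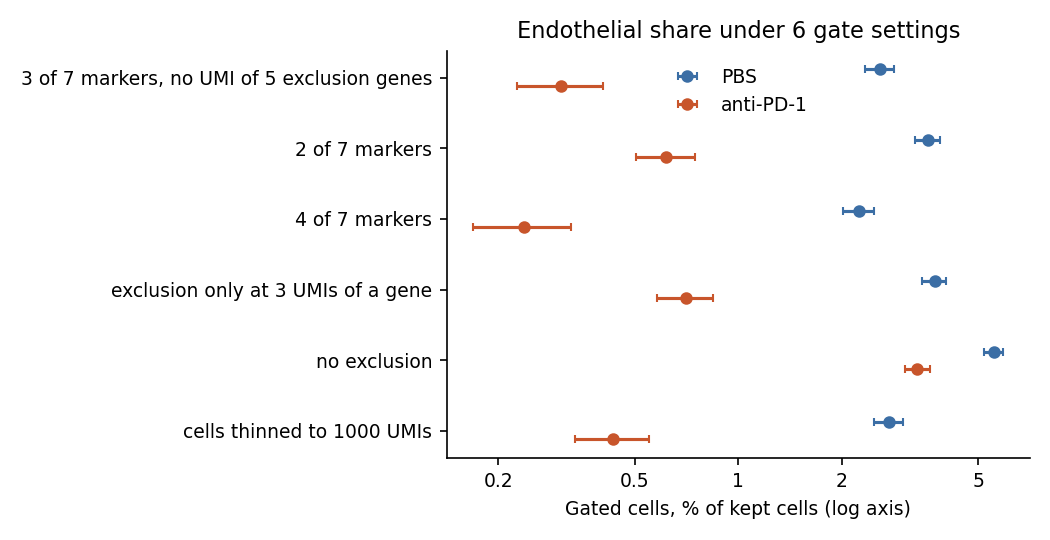
Gated cells as a percentage of kept cells (log axis) in each library under 6 settings of the gate, with exact 95% counting intervals. The PBS share lies above the anti-PD-1 share in every setting drawn, and the gap is narrowest as a ratio (5.54% and 3.32%) where no cell is removed for transcripts of other types.

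Within the gate, the balance of sinusoidal to other endothelium did not differ beyond counting error. Cells with a UMI of Stab2 or Clec4g were 64.4% (259 of 402; 59.5% to 69.1%) of gated cells in the PBS library and 68.0% (34 of 50; 53.3% to 80.5%) in the anti-PD-1 library. The difference of 3.57 percentage points has an interval from -10.96 to 15.8. Among the 860 and 543 cells before removal the shares were 73.6% and 89.9%, a difference of 16.3 points (12.3 to 20.1). Of the cells before removal 46.4% and 84.7% held a Ptprc UMI, so these shares are not a balance of endothelium alone. Genes that did not make the split were also compared across it. Of 17 further sinusoidal genes, 15 were higher in sinusoidal than in other gated cells of the PBS library, with a median log2 ratio of 1.56, and all 14 with enough counts were higher in the anti-PD-1 library, again with a median of 1.56. In the PBS library 0 of 8 arterial genes, 1 of 6 lymphatic genes, 1 of 13 angiogenic and capillary genes and 2 of 9 large-vessel genes were higher in the sinusoidal cells, with median log2 ratios of -2.76, -4.78, -1.44 and -1.16. In the anti-PD-1 library fewer had enough counts, and 1 of 1 arterial gene, 3 of 3 lymphatic, 2 of 7 angiogenic and capillary and 4 of 9 large-vessel genes were higher in the sinusoidal cells, with medians of 2.46, 2.49, -0.93 and -0.53. Transcripts of most lymphatic genes lay mainly in the other cells with PBS and in the sinusoidal cells with anti-PD-1. With 16 other endothelial cells in the anti-PD-1 library, these were not divided further by vessel.

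Levels were next compared between the libraries as log2 ratios of anti-PD-1 over PBS CPM, for the 9525 genes with at least 20 UMIs over both. The median gene stood at -0.13, and scaling by the median ratio of abundant genes instead of total UMIs would add 0.14 to every value. Of the 9525 genes, 529 (5.55%) were at least 2-fold higher and 1324 (13.9%) at least 2-fold lower in the anti-PD-1 library; with median-ratio scaling the numbers were 737 and 1012. The interval left out a ratio of 1 for 341 of the higher and 341 of the lower genes. Both totals lean on thin data: 1378 genes had only 1 or 2 UMIs in the 50 anti-PD-1 cells, 322 had none and were set at a floor of 3 counts, and for 325 of the 529 higher genes more than 25% of the anti-PD-1 UMIs came from a single cell.

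**Figure D3:**
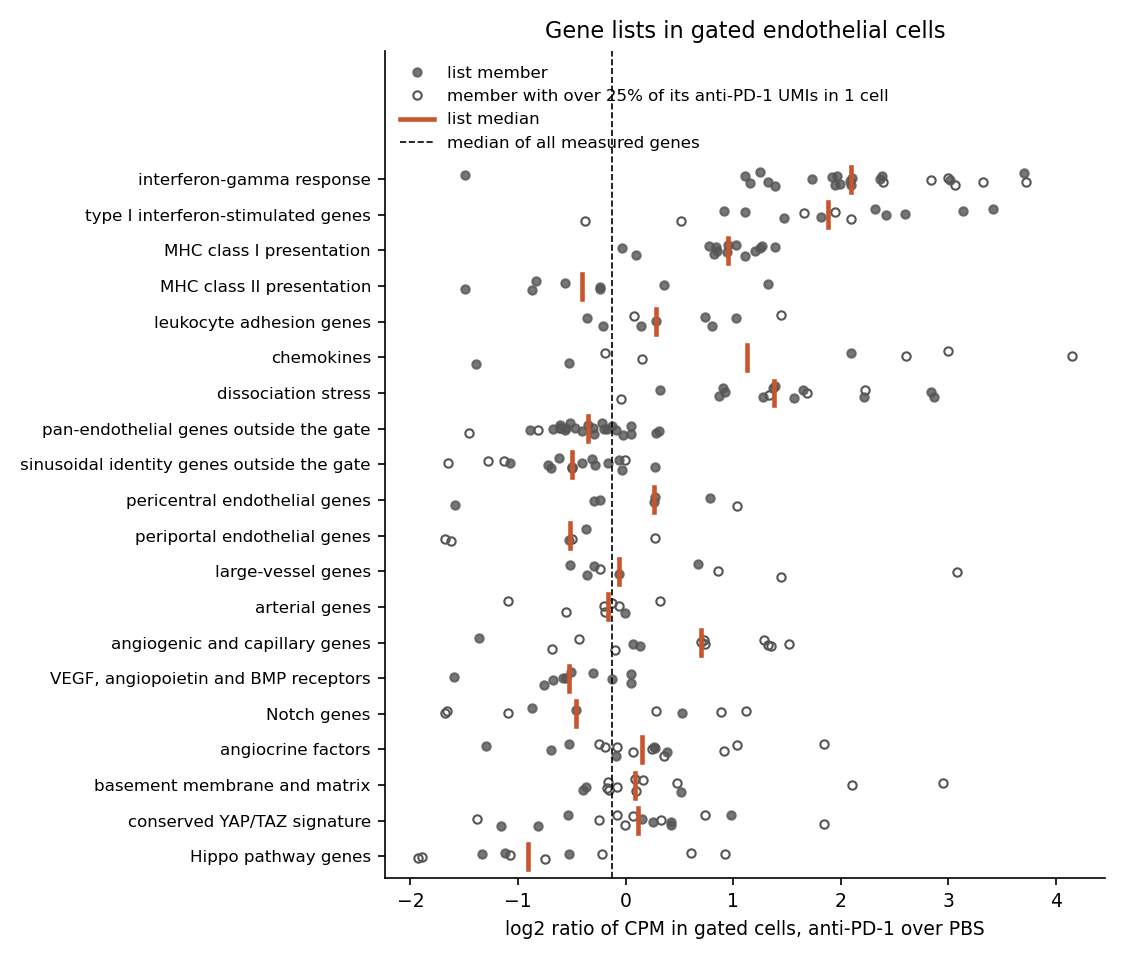
Log2 ratio of CPM (anti-PD-1 over PBS, horizontal axis) of each measured member of 20 gene lists in gated cells. Points are genes, open where 1 cell holds over 25% of the anti-PD-1 UMIs, orange bars are list medians and the dashed line is the median of all measured genes, -0.13. The interferon-γ list (2.09) and the dissociation stress list (1.38) lie to the right of the line, and the sinusoidal identity list (-0.50) lies to its left.

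Interferon-γ response genes were higher as a group in the anti-PD-1 library. Of 25 list members 24 had enough counts, and 23 of these were at least 2-fold higher with anti-PD-1, against 5.55% of all genes; 21 had an interval above 1, against 6.22% of all genes. Their median log2 ratio was 2.09 (medians of the members' lower and upper bounds, 1.64 and 2.59), and their summed level was 1626 CPM with PBS and 6826 CPM with anti-PD-1. The exception was Irf8, a transcription factor, at 207.9 and 73.8 CPM (log2 ratio -1.49). Ido1 had too few UMIs to compare.

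The immunity-related GTPases, which attack vacuoles that hold pathogens, were among the highest. Iigp1 stood at 204.2 CPM (387 UMIs in 109 of 402 cells) in the PBS library and 1054 CPM (200 UMIs in 34 of 50 cells) in the anti-PD-1 library, 5.16-fold higher (4.33 to 6.14). Igtp stood at 58.6 and 474.4 CPM, 8.10-fold higher (6.06 to 10.8), with a UMI in 12.2% and 48.0% of cells. Both were high in the anti-PD-1 cells on broad support, since no cell held more than 16.7% of the UMIs of either gene. Tgtp2 (14.8 and 195 CPM, log2 ratio 3.72) and Tgtp1 (6.86 and 89.6 CPM, log2 ratio 3.71) had the top log2 ratios of the list; they are near-identical copies whose reads may be split, so each alone is uncertain, and 1 cell held 29.7% of the Tgtp2 UMIs. Irgm1 stood at 100.3 and 432.2 CPM (log2 ratio 2.11).

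The guanylate-binding proteins, a second family of interferon-induced GTPases, were higher too. Gbp2 stood at 76.0 and 542.9 CPM (log2 ratio 2.84), in 82 of 402 and 27 of 50 cells, with 26.2% of anti-PD-1 UMIs in 1 cell. Gbp3, Gbp4, Gbp5, Gbp6 and Gbp7 had log2 ratios of 1.74, 2.00, 2.39, 3.06 and 2.08; of the 10 anti-PD-1 Gbp6 UMIs 4 were in 1 cell. The family is one of close paralogs, so the split of reads among members is uncertain. Irf1, a transcription factor induced early by interferon-γ, stood at 92.3 and 205.6 CPM (log2 ratio 1.16). Socs1, an inhibitor of interferon-γ signaling, stood at 19.5 and 73.8 CPM (log2 ratio 1.92). Nlrc5 and Ciita, the transactivators of MHC class I and class II genes, had log2 ratios of 1.11 and 1.32 on 8 and 4 anti-PD-1 UMIs, with intervals that include no change.

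**Figure D4:**
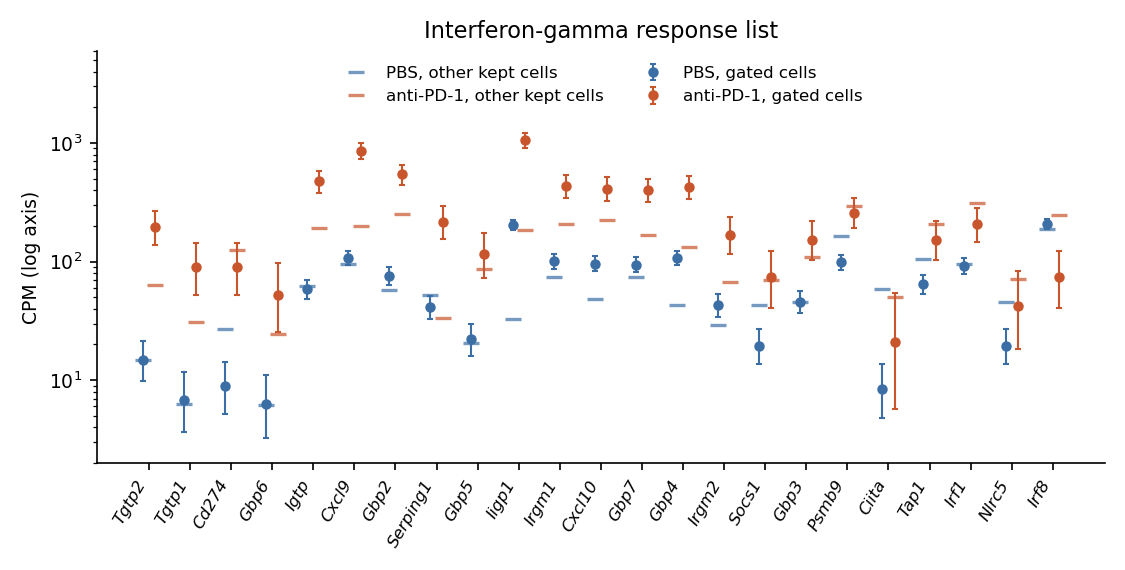
CPM (log axis) of 23 of the 24 measured interferon-γ response genes in gated cells (points, with exact Poisson 95% intervals) and in all other kept cells (dashes) of the PBS and anti-PD-1 libraries. The anti-PD-1 point lies above the PBS point for 22 of the 23 genes drawn, Irf8 being the other.

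The stretches of DNA just before the starts of 4 of these genes are shown because transcription factors of the interferon pathway are known to act at such places. After Iigp1, they are the list members with the most anti-PD-1 UMIs that have 1 RefSeq window. Each run is the 250 bases before the RefSeq start on the gene's strand in GRCm38.p6, in lower case. Capitals mark 2 motifs, searched on both strands: the γ-activated site TTCNNNGAA and the core of the interferon-stimulated response element, GAAANNGAAA or its reverse TTTCNNTTTC. The windows are chr5:92328080-92328329 (Cxcl9, reverse strand), chr3:142620413-142620662 (Gbp2, forward strand), chr11:58199306-58199555 (Igtp, forward strand) and chr11:48871421-48871670 (Irgm1, reverse strand).
Cxcl9: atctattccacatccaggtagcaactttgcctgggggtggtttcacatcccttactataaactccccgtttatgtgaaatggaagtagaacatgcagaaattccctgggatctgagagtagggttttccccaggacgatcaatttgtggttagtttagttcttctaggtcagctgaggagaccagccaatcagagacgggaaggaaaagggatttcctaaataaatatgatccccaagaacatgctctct
Gbp2: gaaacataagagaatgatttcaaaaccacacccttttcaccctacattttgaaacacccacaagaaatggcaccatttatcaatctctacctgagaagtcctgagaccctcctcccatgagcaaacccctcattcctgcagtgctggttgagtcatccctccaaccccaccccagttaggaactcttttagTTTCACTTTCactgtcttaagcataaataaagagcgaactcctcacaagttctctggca
Igtp: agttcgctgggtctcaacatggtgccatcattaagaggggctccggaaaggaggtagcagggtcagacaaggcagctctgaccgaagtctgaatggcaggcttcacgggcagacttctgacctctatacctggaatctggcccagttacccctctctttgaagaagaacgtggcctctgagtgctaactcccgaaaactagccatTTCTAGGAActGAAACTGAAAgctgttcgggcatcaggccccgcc
Irgm1: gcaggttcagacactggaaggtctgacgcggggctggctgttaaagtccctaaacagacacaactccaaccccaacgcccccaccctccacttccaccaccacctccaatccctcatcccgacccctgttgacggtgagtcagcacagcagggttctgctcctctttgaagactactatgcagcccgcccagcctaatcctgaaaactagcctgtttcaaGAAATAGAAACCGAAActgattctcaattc
In the Igtp window the γ-activated site ends 37 bases and the response element core 25 bases before the start. The Gbp2 window holds 1 core, 50 bases before the start, and the Irgm1 window holds 2 cores that share bases, 21 and 15 bases before it. Neither motif is in the Cxcl9 window, which says nothing of other kinds of site within it or of sites farther away. Of the 25 list members 17 had a window, some more than 1; of their 20 windows the γ-activated site was in 8, the core in 11 and either in 13. Among all 32851 windows of this length the γ-activated site was in 7.02%, the core in 2.98% and either in 9.66%. A match is a match of letters and no evidence of binding in these cells.

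The higher total of the list was spread over most cells. With each cell thinned to 1000 UMIs, which kept 373 and 43 cells and left out 29 and 7, the median cell held 1 UMI of the list with PBS and 4 with anti-PD-1. The share of cells with any UMI of the list was 63.5% (58.4% to 68.4%) and 90.7% (77.9% to 97.4%). Without thinning it was 86.6% and 98.0%. In the remaining cells the list summed to 1496 and 3643 CPM, and the part of stray transcripts in these shares was not tested. Sinusoidal cells had medians of 1 and 4 UMIs (234 and 30 cells). The other endothelial cells had medians of 1 and 12 UMIs (139 and 13 cells). The list's median log2 ratio was 2.07 over 21 members in sinusoidal cells and 2.38 over 20 members in the other cells. Among cells with a Y-linked UMI and no Xist UMI, 24 and 17 cells, it was 2.90 over 16 measured genes.

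**Figure D5:**
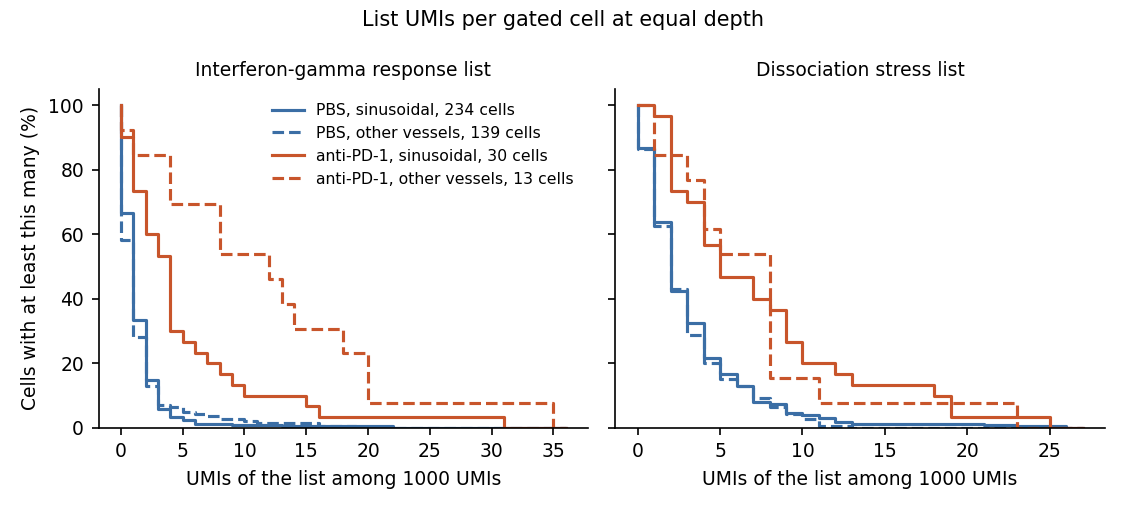
Share of gated cells (percent, vertical axis) holding at least the number of list UMIs on the horizontal axis, after thinning each cell to 1000 UMIs, for the interferon-γ list (left) and the dissociation stress list (right). Lines are sinusoidal cells (solid, 234 PBS and 30 anti-PD-1) and other endothelial cells (dashed, 139 and 13), and on the left the anti-PD-1 lines lie above the PBS lines at every number from 1 up to 22.

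The interferon-γ genes were also higher in the other cell types of the anti-PD-1 library. The list's median log2 ratio was 1.67 in cells gated as Kupffer cells (1325 and 3501 cells), 2.07 in fibroblasts (704 and 319), 2.29 in tumor and biliary cells (1329 and 776) and 1.51 over all cells outside the endothelial gate. These gates were not compared by a test, and the endothelial value of 2.09 lies inside their range. In level, Iigp1 stood at 1054 CPM in anti-PD-1 endothelial cells against 183.2 CPM in the remaining cells, and Gbp2 at 542.9 against 253.9 CPM. The same order held in the PBS library for Iigp1 (204.2 against 33.0 CPM) and Gbp2 (76.0 against 57.3 CPM). Irf1 differed in the opposite way, 205.6 CPM in anti-PD-1 endothelial cells against 313.5 CPM in the rest.

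Type I interferon-stimulated genes, antiviral effectors that overlap with the interferon-γ program, had a median log2 ratio of 1.88, and 13 of 14 measured members were higher. Isg15, a ubiquitin-like modifier, stood at 49.1 and 521.8 CPM, 10.6-fold higher (7.93 to 14.3), with a UMI in 52 of 402 and 22 of 50 cells. Ifit3, which blocks translation of viral RNA together with Ifit1, stood at 26.4 and 231.9 CPM (log2 ratio 3.14). Bst2 (tetherin), the most abundant member, stood at 605.2 and 1139 CPM (0.91). The lowest were Oasl1 (-0.38, on 2 anti-PD-1 UMIs) and Ifit3b (0.51, on 3). The list median was 3.10 over 10 members in the other endothelial cells and 1.25 over 13 in sinusoidal cells, so these medians cover different members. In the other cells Ifit3 had a log2 ratio of 5.42 (10 and 29 UMIs) and in the sinusoidal cells 1.66 (40 and 15 UMIs). In the other cells Ifit3 and Ifit1 (9 and 12 UMIs) reached the minimum of 20 UMIs only with their anti-PD-1 counts, which can lift that median. The kinds of endothelium were not compared by a test.

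Genes of MHC class I presentation were higher as a group by a smaller step, with a median log2 ratio of 0.95, and 11 of 14 members had an interval above 1 (6.22% of all genes). B2m, the shared light chain, was found in 50 of 50 anti-PD-1 cells and stood at 4526 and 7738 CPM (0.77). The heavy chains H2-K1 and H2-D1 had log2 ratios of 0.84 and 0.82; reads of these paralogs may be split. Tapbp (tapasin) and Psmb9 (an immunoproteasome subunit) stood at 1.27 and 1.39. Tap2, a subunit of the peptide transporter, stood at 91.8 and 89.6 CPM (-0.04), its partner Tap1 at 64.4 and 152.9 CPM (1.25). MHC class II genes gave no stable direction. The median was -0.40 with 6 of 8 lower, including H2-Eb1 (546.1 and 305.7 CPM) and H2-DMa (74.4 and 26.4 CPM), but it was 1.28 once cells with a Ptprc UMI were left out, -1.09 in sinusoidal cells and 0.76 in the others. Class II transcripts were far more abundant outside the gate: H2-Aa stood at 3043 and 2871 CPM there, against 616.8 and 416.4 CPM in gated cells.

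Chemokines and adhesion molecules, which steer leukocytes out of the blood, differed from member to member. The T cell attractants Cxcl9 and Cxcl10 stood at 108.2 and 864.4 CPM and at 96.0 and 411.1 CPM. Cxcl9 had a UMI in 36 of 402 (8.96%) and 17 of 50 (34.0%) cells, but 1 anti-PD-1 cell held 43.3% of its UMIs. For Cxcl10 these were 28 and 14 cells, and 23.1% of UMIs in 1 cell. Cxcl2, a neutrophil attractant, had the top log2 ratio (4.15), with 58.6% of its UMIs in 1 cell. Cxcl16, a membrane-bound attractant for CXCR6+ T cells, was lower, at 221.6 and 84.3 CPM (-1.39), and Ccl5 had a ratio of -0.53 with an interval that includes no change. The list's median was 1.12 over 8 of 13 members. Only Cxcl16 and Ccl5 had no more than 25% of UMIs in 1 cell of either library (Cxcl10 had 29.7% in 1 PBS cell), and their median was -0.96.

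Of the adhesion genes, Vcam1, which binds lymphocyte integrin, stood at 196.8 and 400.6 CPM (1.03; 0.65 to 1.39), in 131 of 402 and 21 of 50 cells. Icam1 stood at 87.6 and 152.9 CPM (0.80; 0.18 to 1.38). Ackr1, a chemokine-binding protein of venules, had a ratio of 1.45 with 81.0% of its UMIs in 1 cell. The selectin Selp (-0.36) and F11r (-0.21) were the lowest, with intervals that include no change. The median of the 9 measured members was 0.28, and -0.12 without Ptprc cells. After thinning, 85.0% and 93.0% of cells held a UMI of an adhesion gene. Of the ligands for T cell checkpoint receptors, Cd274 (PD-L1) stood at 8.97 CPM (17 UMIs in 11 of 402 cells) and 89.6 CPM (17 UMIs in 9 of 50 cells), a log2 ratio of 3.32 (2.26 to 4.38), with 5 of the 17 anti-PD-1 UMIs (29.4%) in 1 cell. Its level in the remaining cells was 27.2 and 126.1 CPM. Lgals9 (galectin-9) stood at 280.7 and 405.9 CPM (0.53), and Pvr (-0.81) and Nectin2 (-0.37), ligands of TIGIT, had intervals that include no change.

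Most identity genes of the endothelium had lower values in the anti-PD-1 library. The medians of the members' own lower and upper bounds, -0.86 and 0.10, include no change for a typical member. Of 25 pan-endothelial genes outside the gate 21 were lower, 11 of them with an interval below 1 (6.75% of all genes), and the median was -0.35, beside -0.13 for all genes; with median-ratio scaling 18 were lower and the median was -0.21. Cldn5, the tight-junction claudin of endothelium, was the 1 member at least 2-fold lower, at 362.5 and 131.8 CPM (-1.46; -2.10 to -0.89), with 28.0% of its 25 anti-PD-1 UMIs in 1 cell. It stood at 216.4 and 154.2 CPM in sinusoidal cells (-0.49) and at 615.4 and 63.8 CPM in the other cells (-3.27, on 3 anti-PD-1 UMIs). Next was the transcription factor Sox18 (438.5 and 237.2 CPM, -0.89). Calcrl (0.31) and Icam2 (0.28) were the highest. In cells with a Y-linked UMI and no Xist UMI the list's median was 0.26.

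Of 17 sinusoidal identity genes outside the gate 16 were lower, 10 with an interval below 1 (6.75% of all genes). With total-UMI scaling 4 were at least 2-fold lower, against 13.9% of all genes, and with median-ratio scaling 2 were. The median was -0.50, or -0.36 with 13 lower under median-ratio scaling. The fatty acid receptor Cd36 stood at 529.8 and 168.7 CPM (-1.65; -2.21 to -1.14), in 200 of 402 and 14 of 50 cells, with 31.2% of anti-PD-1 UMIs in 1 cell. Lyve1, a hyaluronan receptor of sinusoids and lymphatics, stood at 923.4 and 379.5 CPM (-1.28). Sinusoidal cells held 593.5 and 497.6 CPM of Lyve1 (-0.25), and 1 of them held 29 of their 71 anti-PD-1 UMIs (40.3% of all). The other cells held 1495 and 21.3 CPM (1037 UMIs and 1 UMI). The 5 measured lymphatic genes had 1880 and 0 UMIs in the other cells. This class had 143 and 16 cells, and few cells held lymphatic genes. Whether its make-up differs between the libraries was not tested. The part of lymphatic cells in the Lyve1 values was not tested either. Oit3 (-1.13) and the lipoprotein receptor Scarb1 (-1.08) were also past 2-fold in total-UMI scaling. Dnase1l3, a secreted DNase, stood at 602.6 and 600.9 CPM, with 36.8% of anti-PD-1 UMIs in 1 cell, and at 939 and 799 CPM within sinusoidal cells. The clotting factor gene F8 stood at 675.4 and 648.3 CPM, and at 955.6 and 714.9 CPM within sinusoidal cells. Gata4, the transcription factor that sets sinusoidal fate, stood at 165.7 and 200.3 CPM (0.27), with an interval that includes no change. After thinning, the median cell held 7 UMIs of the list in both libraries, but 13 and 7 UMIs within sinusoidal cells and 3 and 1 UMIs within the other cells.

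Genes of sinusoid zones and of vessel kinds pointed in mixed directions. Near the central vein, endothelial Wnt2, Wnt9b and Rspo3 drive the pericentral program of hepatocytes. Rspo3 stood at 623.2 CPM (131 of 402 cells) and 1276 CPM (14 of 50 cells), a ratio of 1.03 (0.83 to 1.23), with 25.2% of UMIs in 1 cell. Wnt2 and Wnt9b stood at 0.26 and 0.27 with intervals that include no change, and Fabp4, a fatty acid carrier, at 2233 and 3837 CPM (0.78). The receptor Kit was lower, at 126.6 and 42.2 CPM (-1.59). Toward the portal side, Dll4 (135.1 and 42.2 CPM, -1.68) and Efnb2 (97.6 and 31.6 CPM, -1.63) were the lowest of 6 members on 8 and 6 anti-PD-1 UMIs, and Ltbp4 the highest (0.27).

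Dll4 is also the main Notch ligand of endothelium, and its receptor Notch4 stood at 83.4 and 26.4 CPM (-1.66). Notch1 stood at 283.9 and 205.6 CPM (-0.47), and the target Hes1 at 179.4 and 258.3 CPM (0.53). The Notch list's median was -0.47 over 9 members. Of 10 receptors for VEGF, angiopoietin and BMP 8 were lower, with a median of -0.53 (0.05 in the other endothelial cells). Flt1, a VEGF receptor, stood at 764 and 521.8 CPM (-0.55), Plxnd1 at 472.8 and 279.4 CPM (-0.76) and the BMP receptor Acvrl1 at 63.9 and 21.1 CPM (-1.60). Tek, the angiopoietin receptor, and Nrp1, the VEGF co-receptor, both stood at 0.05.

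Among large-vessel genes Vwf, the clotting factor carrier stored in continuous endothelium, stood at 814.2 and 780.1 CPM, and Mgp at 310.8 and 2630 CPM with 95.8% of its UMIs in 1 cell. The median was -0.06 (0.08 with median-ratio scaling), and it was -0.16 for 8 arterial genes. The angiogenic and capillary list had a median of 0.70, but 10 of its 13 measured members had over 25% of UMIs in 1 cell. Ly6a (Sca-1), the most abundant, stood at 812.6 and 2335 CPM (1.52), in 226 of 402 and 35 of 50 cells, with 30.0% of UMIs in 1 cell, while it stood at 240 and 696.2 CPM in the remaining cells. Plvap, a fenestral diaphragm protein, stood at 995.7 and 1091 CPM (0.13). Lymphatic genes were held by few cells: Ccl21a stood at 337.2 CPM (14 cells) and 2514 CPM (3 cells), with 81.8% of the anti-PD-1 UMIs in 1 cell. Of its PBS UMIs 638 of 639 lay in the other endothelial cells, and all 477 anti-PD-1 UMIs lay in cells classed as sinusoidal. Mmrn1, a lymphatic multimerin, split in the same way, with 785 of 805 PBS UMIs in the other cells and all 51 anti-PD-1 UMIs in sinusoidal ones. Prox1, the lymphatic master regulator, had 122 and 2 UMIs, 6.11 times higher in PBS (1.66 to 51.0).

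Secreted signals and flow-responsive genes differed member by member. Of 16 angiocrine genes Ccn1, a matricellular protein, had the highest ratio (67.5 and 242.5 CPM, 1.84; 39.1% of UMIs in 1 cell) and Inhbb, an activin subunit, the lowest (284.4 and 116 CPM, -1.29), followed by Bmp2, the iron-sensing signal to hepatocytes (494.4 and 305.7 CPM, -0.69). Csf1, the macrophage growth factor, stood at 39.1 and 73.8 CPM (0.92), with an interval that includes no change, and Igfbp7, the most abundant member, at 3754 and 4802 CPM (0.36; 27.0% of UMIs in 1 cell). The flow-induced factors Klf2 (789.9 and 1291 CPM) and Klf4 (135.1 and 221.4 CPM) both stood at 0.71, and the vasoconstrictor gene Edn1 at 0.86. A single cell held 31.0% of the anti-PD-1 Klf4 UMIs and 27.7% of those of Edn1. Procr (-1.15) and Nos3 (-0.82), a coagulation receptor and the nitric oxide synthase, were the lowest of the 10. Basement membrane genes had a median of 0.09, but 10 of the 13 had over 25% of anti-PD-1 UMIs in 1 cell. Col4a1 stood at 1128 and 1202 CPM with 40.8% of UMIs in 1 cell, and Sparc at 3175 and 2419 CPM (-0.39). Col15a1 (2.95) and Sparcl1 (2.11) had 90.9% and 84.1% of UMIs in 1 cell.

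Targets of YAP and TAZ, the proteins that the shRNAs of both libraries aim at, showed no common shift. The median of a conserved signature was 0.11 over 16 of 22 members (medians of the members' lower and upper bounds, -1.22 and 1.04). Ccn2 stood at 862.2 and 727.4 CPM (-0.25) and Amotl2 at 59.1 and 79.1 CPM (0.42), both with intervals that include no change. Apart from Ccn1, Ccdc80 was the highest (202.6 and 400.6 CPM, 0.98). Crim1 stood at 351.4 and 200.3 CPM (-0.81), and the lowest were Nuak2 (-1.38, on 2 anti-PD-1 UMIs) and Ptpn14 (-1.16, on 4). Of 10 measured Hippo pathway genes 8 were lower, with a median of -0.91. The medians of the members' own bounds, -2.30 and 0.68, include no change for a typical member. Of the 10, 2 had an interval below 1 (6.75% of all genes), and 7 had over 25% of anti-PD-1 UMIs in 1 cell. Wwtr1 (-1.12) and the TEAD cofactor Vgll4 (106.6 and 42.2 CPM, -1.34) had intervals below 1, while for Yap1, on 1 anti-PD-1 UMI, the PBS level was 3.804 times higher with an interval from 0.643 to 154. Against the remaining cells, gated cells held more of both: Yap1 stood at 2.97 and Wwtr1 at 7.86 CPM in the rest of the PBS library.

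Early response and heat shock genes, which dissociation of tissue can switch on, were also higher in the anti-PD-1 library, in 15 of 16 members, 14 with an interval above 1 (6.22% of all genes), and with a median of 1.38. Fosb stood at 33.2 and 242.5 CPM (2.87), Hspa1b at 48.5 and 347.9 CPM (2.84) and Jun at 476.5 and 1233 CPM (1.37). Dnajb1 (-0.05) and Hsp90aa1 (0.32) were the lowest, with intervals that include no change. Hspa1a and Hspa1b are near-identical copies, so each alone is uncertain. The median was 1.15 in Kupffer cells, 1.99 in fibroblasts, 1.66 in tumor and biliary cells and 1.20 over all cells outside the gate. Thinned cells held a median of 2 and 5 UMIs of the list. Its part in the interferon-γ difference was not tested.

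Transcripts of other cell types were also found in gated cells, and most of these groups, though not all, were higher in the remaining cells. Macrophage markers, 10 of 11 measured, summed to 3240 CPM in gated PBS cells and 1312 CPM in gated anti-PD-1 cells. In the remaining cells the sums were 19550 and 14700 CPM. Of the 10 members 7 were lower, such as Lyz2 (1508 and 321.5 CPM) and Cd68 (100.8 and 15.8 CPM), and 3 were at least 2-fold higher. All 7 neutrophil markers were higher in the anti-PD-1 library, summing to 664.8 and 1792 CPM, against 3030 and 10230 CPM in the rest, and 6 of the 7 had over 25% of anti-PD-1 UMIs in 1 cell. B cell transcripts summed to 467 and 1913 CPM over 3 of 6 members, Igkc, Ighm and Jchain, against 10510 and 8107 CPM over all 6 in the rest; each of the 3 had over 25% of UMIs in 1 cell. T and NK cell markers summed to 103.4 and 116 CPM over 5 of 8 (1076 and 1727 CPM in the rest), tumor and biliary markers to 1395 and 743.2 CPM over 5 of 8 with Spp1 as the main part (5230 and 2364 CPM in the rest), hepatocyte markers to 92.9 and 205.6 CPM over 3 of 8 (499.9 and 547.3 CPM), and the 1 measured mesothelial marker of 5 to 120.8 and 116 CPM, above the 34.0 and 18.0 CPM of the rest. Fibroblast and mural markers summed to 374.6 and 1734 CPM over 6 of 8, against 1207 and 472.7 CPM in the rest, so that the anti-PD-1 gated cells held the higher level, with 93.7% of anti-PD-1 Rgs5 UMIs, 95.7% of Col1a2 and all 15 Pdgfrb UMIs in 1 cell each. Platelet markers summed to 63.3 and 463.8 CPM over 3 of 4, against 162.4 and 109.6 CPM in the rest, but 1 anti-PD-1 cell held 66 of 68 Pf4 UMIs and 1 cell all 11 Ppbp UMIs, and no acinar marker had enough UMIs. The part of these transcripts in the differences above was not tested one by one. With cells left out that held 3 or more UMIs of Pdgfrb, Rgs5, Col1a2, Col3a1, Pf4 and Il1b together (24 and 7 cells), the interferon-γ list's median was 2.31. Cycling genes were rare, with Mki67 at 116 UMIs in 22 cells and 1 UMI in 1 cell, and the hypoxia and glycolysis list had a median of -0.01.

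A ranking over all genes gave further names. It took genes with UMIs in at least 10% of gated cells of a library, no single cell above 25% of UMIs where the gene is higher, an interval off 1 and, in the library where the gene is higher, a level in gated cells at least 2 times that of the remaining cells; 113 higher and 173 lower genes qualified. The higher genes therefore passed on their anti-PD-1 values and the lower genes on their PBS values. Each gene's place in the ranking, at either end, is a description. The highest 10 were Tgtp1, Ifit3, Igtp, Ifit1 (14.8 and 89.6 CPM, 2.60) and Iigp1 of the interferon lists, the protease inhibitor Serpina3f (35.4 and 158.1 CPM, 2.16) and 4 more. With PBS several stood near the remaining cells, such as Tgtp1 (6.86 against 6.27 CPM), Ifit3 (26.4 against 23.2 CPM) and Igtp (58.6 against 62.0 CPM). The 4 were Pla2r1, a phospholipase A2 receptor (6.86 and 42.2 CPM, 2.62), Rnf43, a ubiquitin ligase that dampens Wnt receptors (8.97 and 47.4 CPM, 2.40), Tdp2, a DNA repair phosphodiesterase (13.2 and 63.3 CPM, 2.26), and the cyclophilin Ppwd1 (8.97 and 42.2 CPM, 2.23), on 8 to 12 anti-PD-1 UMIs each.

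The lowest 10 all had 1 to 3 anti-PD-1 UMIs, so their ratios are wide. Myzap, a junction protein of endothelium and heart, had 122 UMIs in 74 of 402 PBS cells and 1 UMI in the anti-PD-1 library, 12.2 times higher in PBS (2.15 to 486). Col13a1, a transmembrane collagen, had 207 UMIs in 108 cells and 3 UMIs in 2 cells, 6.91 times higher (2.33 to 33.8). The zinc transporter Slc39a10 (106 and 1 UMIs) stood 10.6 times higher (1.86 to 423), and the nuclear receptor Nr5a2 (95 and 1) 9.51 times higher (1.67 to 379.5). The other 6 were Pla2g12a, Hic1, Xxylt1, Rhod, Myh10 and Pip5k1a, with log2 ratios from -3.39 to -2.63. By the same rule 2 genes had no anti-PD-1 UMI. Set at the floor of 3 counts in the 50 cells, the basement membrane gene Nid2, with 77 PBS UMIs, stood 2.57-fold lower. The noncoding gene Dnah2os, with 65, stood 2.17-fold lower on the same floor.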

How the data were processed

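Tumor-bearing livers were digested, depleted of red cells, debris and dead cells, and prepared with the Singleron GEXSCOPE kit V2. The authors deposited raw UMI counts per gene and cell for 2 libraries, made with the Singleron pipeline (version not given in the sources used here) on mm10; the submitters' processing notes also name Seurat 4.3, which does not apply to raw counts. These counts, for 32589 genes and 19397 and 19451 barcodes, were read with pandas 2.3.3 and scipy 1.17.1.

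Cells with 500 to 5000 genes and at most 10% mitochondrial UMIs were kept. UMIs of gated cells were summed per library and scaled to CPM. Intervals are exact Clopper-Pearson for shares, Newcombe for differences of shares, exact Poisson for CPM and exact conditional binomial for ratios, all at 95%; PCR and cell capture errors are not covered. Log2 ratios carry no pseudocount, except that a count of 0 was set at 3; a gene with 1 or 2 UMIs can therefore read lower than one at 0. Doublets were scored with Scrublet in scanpy 1.11.5; its automatic threshold marked 0 cells, so the top 5% of scores (759 and 806 cells, 40 and 0 of them gated) were marked for an alternative, and all cells stayed in the main values. Kupffer cells, fibroblasts, and tumor and biliary cells were gated by their own markers. Genes were named by rank (10 each way, under the conditions given with the ranking) and as members of 36 lists, with at least the 2 highest and 2 lowest members of the main lists; 2 listed genes, Cxcl11 and Mx1, have no row. The lists' counts and medians include 1 interferon-γ member whose own values are not reported here. The cells and lists were chosen with earlier results of these data known. Scripts were tested on simulated Poisson counts, which do not gather in single cells. Coordinates come from GENCODE vM21 (99.8% of gene IDs matched) and promoter windows from RefSeq for GRCm38.p6.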

Additional observations from a re-analysis of the deposited data

How the results depend on the processing

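With 1 library per group, no replicate can be left out and no alternative carries a test. No paired analysis was possible because each group has a single library. Alternatives changed the gate, the cell filter, the cells used, the scaling, the pseudocount or the count minimum; removal at 3 UMIs, the removal of genes carried by 1 cell, of cells with mural, platelet or neutrophil genes, and the floor for counts of 1 and 2 were chosen after seeing the data. A share difference or a gene's ratio counts as moved if it left the counting interval of the reported one. A list median counts as moved if it left the medians of its members' bounds. A count of genes past 2-fold counts as moved if it differed by more than a set factor. Of the values that answer a comparison, 102 stayed within these limits and 18 moved. Of the others, 747 stayed, 102 moved and 28 changed direction, a change counted only where the reported bounds exclude 0.

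The share difference in percentage points was -2.94 with 2 markers (3.56% and 0.617%), -2.01 with 4 markers (2.25% and 0.238%), -2.67 with 2 of the 5 markers other than Stab2 and Clec4g (3.17% and 0.501%) and -3.03 with removal at 3 UMIs. Without removal it was -2.22, and the sinusoidal share then differed by 16.3 points (73.6% and 89.9%). Of the cells before removal 46.4% and 84.7% held a Ptprc UMI. The number of genes past 2-fold was 1002 (242 higher, 760 lower) at 50 UMIs, 3617 (2293 higher) at 5 UMIs, 1141 (529 higher, 612 lower) with counts of 1 and 2 set at 3, and 399 (198 higher, 201 lower) without genes carried by 1 cell (over 25% of UMIs in 1 cell of either library); a gene with 1 to 3 anti-PD-1 UMIs cannot pass that filter, so it removes lower genes for being low and its balance has no meaning. Fewer or more genes tested, and the floor, set these counts. The higher genes were 28.5% of those past 2-fold with total scaling and 42.1% with median-ratio scaling. The interferon-γ median ranged from 1.67 to 2.90, the highest in cells with a Y-linked UMI and no Xist UMI (Y-linked cells). The stress median was 0.94 in other endothelial cells and 1.07 in Y-linked cells.

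For 19 lists the bounds, which are medians of the members' own lower and upper bounds, include 0. Such bounds describe a typical member and are no interval of the list median, so they do not decide its direction. Of these 19 lists, 17 changed sign under an alternative (62 values). Among them are pan-endothelial genes (0.26 in Y-linked cells), large-vessel genes (0.64 in sinusoidal cells) and adhesion genes (-0.12 without Ptprc cells). Of the 16 lists whose bounds exclude 0, 7 changed direction, for causes not tested. They include lymphatic genes (0.024 thinned, 4.42 in sinusoidal and 3.93 in Y-linked cells), VEGF, angiopoietin and BMP receptors (0.048 in other endothelial cells) and chemokines (-0.96 over Cxcl16 and Ccl5, the 2 members not carried by 1 cell of either library). The MHC class II median was 0.20 with 2 markers, 0.056 with 4, 1.28 without Ptprc cells, 0.091 thinned, 0.76 in other endothelial cells, 0.28 by mean CPM per cell, 0.54 with removal at 3 UMIs and 0.20 without the cells holding mural, platelet or neutrophil genes. The macrophage median was 0.58 without Ptprc cells, 0.43 with removal at 3 UMIs and 0.28 without those same cells. Hepatocyte markers stood at -0.26 with 2 markers and -0.29 with removal at 3 UMIs, and platelet markers at -0.27 with 4 markers and -0.51 by mean CPM per cell. In Y-linked cells Cdh5 stood at 0.29 and Egfl7 at 0.20. In other endothelial cells Slc39a10, Pla2g12a, Hic1, Col13a1, Myh10 and Pip5k1a stood at 0.0082, 0.075, 0.82, 0.77, 0.30 and 0.18, each on a count at the floor.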
